A study of Mus musculus with 6 samples.

Results

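miR-22 is a microRNA hairpin whose 2 mature strands, mmu-miR-22-3p and mmu-miR-22-5p, were followed in small RNA libraries of mouse renal cortex. The members were the rows carrying either mature name, 2 of the 1900 mature names in the count tables, and each had 1 row. The tofogliflozin group held 3 C57BL/6 mice fed the HF/HC/HS/BA diet, which is rich in fat and cholesterol, contains bile salt and serves to bring about steatohepatitis, with tofogliflozin added for 8 weeks. The diet-only group held 3 C57BL/6 mice fed the same diet without the drug for 8 weeks. All 6 mice thus carried the diet, no group on ordinary chow was analysed here, and neither the age of the mice nor the dose is known from the labels. Tofogliflozin inhibits SGLT2, the sodium-glucose cotransporter of the proximal tubule. The title of the series names restoration of PPARα, so the miR-22 counts were compared between the groups with that receptor in view.

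A miRNA hairpin is cut by Drosha and Dicer into a short duplex, one strand of which is usually kept in Argonaute and pairs with messenger RNAs through its seed, bases 2 to 8. miR-22-3p is the strand described as active, with targets that include the deacetylases Hdac4 and Sirt1 in mouse heart, and PPARA and BMP7 in human cartilage. PPARα is a nuclear receptor that turns on fatty acid oxidation genes and is abundant in the proximal tubule. In kidney, miR-22 has been described as acting on BMP6 and BMP7, ligands that oppose fibrosis.

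The sequences below, from RefSeq on GRCm38.p6, are shown because all results concern the balance and level of these strands. The seed is in capitals in the mature strands.
miR-22-3p: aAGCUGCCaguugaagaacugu
miR-22-5p: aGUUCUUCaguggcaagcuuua
Both strands are 22 bases long. In the hairpin, the mature strands are in capitals, 5p first.
Mir22 hairpin: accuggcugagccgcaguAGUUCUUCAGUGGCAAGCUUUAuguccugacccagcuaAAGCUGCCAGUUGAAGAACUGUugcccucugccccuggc
The hairpin is 95 bases long and lies at chr11:75463716-75463810 on the plus strand, with miR-22-5p at chr11:75463734-75463755 and miR-22-3p at chr11:75463772-75463793. In GENCODE M21 it falls wholly inside exon 2 of the long noncoding RNA Mir22hg (chr11:75463693-75463857), so it is exonic and not intronic. In the structure predicted by RNAfold, 19 of the 22 bases of miR-22-5p pair with miR-22-3p, and 16 bases separate the arms. All 7 seed bases of either strand are paired in that structure. Among 1679 mouse mature names in RefSeq, no other strand has the seed of miR-22-3p, and none has that of miR-22-5p.

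Seed matches were searched in the longest annotated 3′ UTR of each gene, on the transcript strand, to show where miR-22-3p could pair in the messenger RNA of the receptor. The letters searched were GGCAGCT, the complement of the miR-22-3p seed, which are in capitals below.
Ppara: ctaggcccctcctttGGCAGCTc
Sirt1: ttttccaaaacttgtGGCAGCTa
Hdac4: ttgcacgccaaactcGGCAGCTt
Bmp6: tccattcccagcaagGGCAGCTc
Bmp7: aaacctgagcgtgcaGGCAGCTg
The site of Ppara, the gene of PPARα, lies at chr15:85802114-85802136 on the plus strand, in exon 8, and its match starts at base 871 of a 3′ UTR of 1561 bases. The site of Sirt1, a deacetylase that acts with PPARα on fatty acid oxidation, is at chr10:63320154-63320176 on the minus strand. Hdac4, a class II histone deacetylase, has its site at chr1:91929849-91929871 on the minus strand. Bmp6 and Bmp7 have theirs at chr13:38499538-38499560 (plus strand) and chr2:172869954-172869976 (minus strand). The same letters occur in 12.8% of 21020 3′ UTRs, and in 16.3% of the 1427 whose length is within 10% of that of Ppara. These genes were picked because they are described as targets, so their matches support nothing, and a match is a description and not a shown site. Ppargc1a, a coactivator of PPARα, holds no GGCAGCT in its 3′ UTR and 1 match to the seed of miR-22-5p (GAAGAAC, present in 10.05% of 3′ UTRs), whereas Ppara holds no GAAGAAC. Messenger RNA levels were not measured in these libraries.

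Libraries held 8574068 to 29649059 counts after repeated rows were merged, with the fewest in tofogliflozin replicate 2, and a count of 0 allowed up to 0.101 to 0.350 CPM (counts scaled to library size), taking 3 counts as the limit. These limits, and the intervals of shares below, cover counting error only. All 8 kidney tubule markers were present and summed to 172102 to 188400 CPM in tofogliflozin libraries and 174104 to 181995 CPM in diet-only libraries. No list of markers of other cells was wholly at 0. Tofogliflozin replicate 2 stood apart, at 14.1 on a first principal component that held 51.8% of the variance, against -6.16 to -0.039 for the other 5 libraries. It also had the highest hepatocyte miR-122-5p, 192 CPM against 29.9 to 60.2 CPM in the other 5 libraries. Its smooth muscle markers miR-143-3p and miR-145a-5p summed to 24903 CPM, against 40653 to 46953 CPM in the others. Its erythroid markers were the highest, at 175 CPM against 35.7 to 129 CPM, and its endothelial markers the lowest, at 11954 CPM against 13404 to 17017 CPM. Its kidney tubule markers were also the highest, at 188400 CPM against 172102 to 183757 CPM. Striated muscle markers were at 140.8 CPM in it against 141.2 to 190.8 CPM, and leukocyte markers at 56.7 CPM against 51.9 to 76.6 CPM. The fold changes and the arm difference of miR-22 are therefore given with and without tofogliflozin replicate 2.

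miR-22-3p was an abundant miRNA of the cortex, and miR-22-5p a lesser one. Reads of miR-22-3p numbered 95170, 40179 and 126984 in tofogliflozin replicates 1, 2 and 3, and 185110, 112272 and 111978 in diet-only replicates 1, 2 and 3. Reads of miR-22-5p numbered 5674, 1771 and 8387 in the tofogliflozin replicates, and 12855, 7536 and 7410 in the diet-only replicates. These raw counts follow library depth, so shares and scaled values are compared from here on.

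Of the 1900 names, 1026 had a count in at least 1 library. By mean share of the counts, 0.560% (0.727% from the largest row of each name alone), miR-22-3p ranked 24 of 1900 names. Its rank within a library was 24, 26 and 25 in tofogliflozin replicates 1, 2 and 3, and 23, 24 and 24 in the diet-only replicates, a spread of few places. The miRNAs next above it were let-7d-5p (6655 ± 440 CPM) and miR-30e-5p (5638 ± 1944), and those next below were miR-27a-3p (5238 ± 1408) and miR-194-5p (4960 ± 665), against 5600 ± 554 CPM for miR-22-3p (SD, n = 6 libraries). These strands are 21 or 22 bases long. The ranges over the libraries of all 4 neighbours overlapped that of miR-22-3p. Compared within each library, let-7d-5p was above miR-22-3p in all 6. The other neighbours were above it in some libraries and below it in others, so its place among those is not fixed. miR-22-5p held 0.0352% of the counts (0.0457% from the largest row of each name alone) and ranked 87. Within libraries it ranked 90, 100 and 85 in the tofogliflozin replicates and 81, 84 and 84 in the diet-only replicates. Its neighbours miR-199a-5p, miR-203-3p, miR-1843a-5p and miR-140-3p had means of 359, 352, 351 and 321 CPM against 352 ± 81.1 CPM for miR-22-5p (SD, n = 6 libraries), again with overlapping ranges.

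Levels with tofogliflozin were compared next, after scaling by trimmed mean of M-values (TMM). miR-22-3p stood at 5391, 4780 and 5451 CPM in tofogliflozin replicates 1, 2 and 3, and at 6203, 6241 and 5530 CPM in diet-only replicates 1, 2 and 3. All tofogliflozin libraries were below all diet-only libraries, but tofogliflozin replicate 3 and diet-only replicate 3 lay close together. The means were 5207 ± 371 CPM with tofogliflozin and 5991 ± 400 CPM on the diet alone (SD, n = 3 each). The log2 fold change, tofogliflozin over diet only, was -0.20 ± 0.11 (SE), with a 95% interval of -0.45 to 0.04, that is a fold between 0.732 and 1.03. The difference missed the threshold of 0.05 in the quasi-likelihood test of edgeR, with a Benjamini-Hochberg adjusted p of 0.824 over 462 miRNAs. The exact 2-sided permutation test gave p = 0.1, the smallest that 3 against 3 libraries allow.

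**Figure D1:**
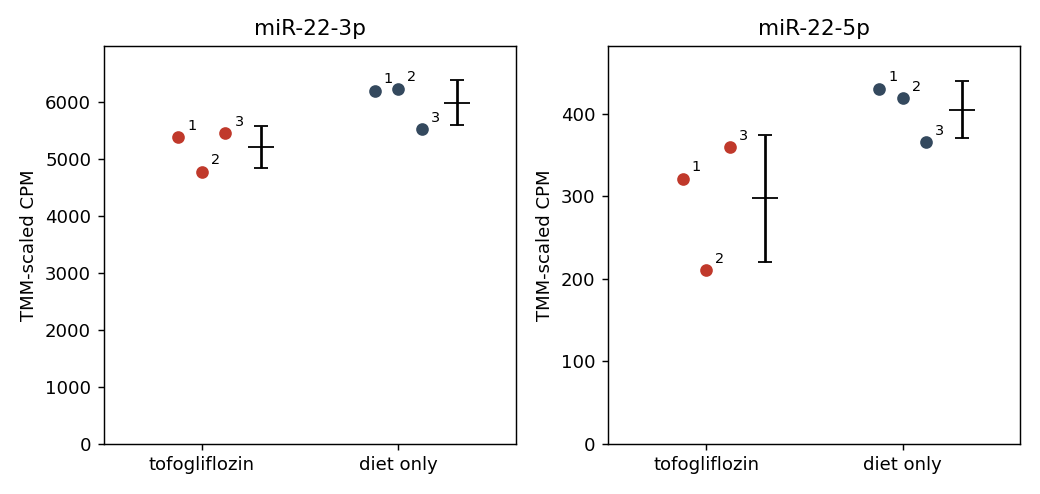
TMM-scaled CPM (vertical axes, starting at 0) of miR-22-3p and miR-22-5p in each library, tofogliflozin left and diet only right, with replicate numbers beside the points and mean ± SD as bars (n = 3 each). All tofogliflozin points lie below all diet-only points in both plots, with a narrow gap between replicates 3 of the groups, and replicate 2 of tofogliflozin is lowest in both.

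miR-22-5p, the strand with fewer reads, stood at 321, 211 and 360 CPM in tofogliflozin replicates 1, 2 and 3, and at 431, 419 and 366 CPM in the diet-only replicates. The groups again did not overlap, the lowest value was that of tofogliflozin replicate 2, and both replicates 3 lay within a few CPM of each other. The means were 297 ± 77.5 CPM with tofogliflozin and 405 ± 34.5 CPM on the diet alone (SD, n = 3 each). On the log2 scale it differed by -0.45 ± 0.20 (SE), with a 95% interval of -0.92 to 0.03 (fold 0.530 to 1.02), and the edgeR fit gave it an adjusted p of 0.824. The exact permutation test gave p = 0.1. Without tofogliflozin replicate 2 the value was -0.27 (edgeR, adjusted p = 0.905), so 1 library moved it by over 1.5 times. For miR-22-3p the value without that library was -0.17. Whether the marker levels of that library, or its depth, have a part in these values was not tested. In a bulk sample, fewer cells of a type and less miR-22 per cell cannot be told apart.

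Read against all miRNAs, 0 of 462 passed an adjusted p of 0.05 in edgeR's quasi-likelihood test (0%), 20 had an unadjusted p under 0.05 (4.33%), and DESeq2 called 2. Neither miR-22 strand was among these 20. Groups that do not overlap were found for 53 of 462 miRNAs (11.5%), and for 25 of 462 with the tofogliflozin group lower (5.41%), both miR-22 strands among them. With upper quartile scaling the groups of both strands overlapped. The highest tofogliflozin value of miR-22-3p was then 5896 CPM and its lowest diet-only value 5557 CPM. For miR-22-5p these values were 389 CPM and 368 CPM. With size factors of the RLE kind or by library size alone they did not overlap. The median log2 fold change over all 462 miRNAs was 0.03, with 212 below 0 and 250 above.

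The strands differed in their spread. Within groups, the SD of log2 CPM was 0.10 for miR-22-3p and 0.30 for miR-22-5p, against a median of 0.34 over all 462 miRNAs. Among the 100 miRNAs with the highest means, miR-22-3p had the SD of rank 26 and miR-22-5p that of rank 73, counted from the least variable. These spreads include tofogliflozin replicate 2, the lowest library for miR-22-5p, and were not computed without it. The SD of miR-22-5p was 77.5 CPM with tofogliflozin and 34.5 CPM on the diet alone.

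The ratio of the arms was compared because it is taken within a library and needs no scaling. miR-22-3p outnumbered miR-22-5p 16.8, 22.7 and 15.1 times in tofogliflozin replicates 1, 2 and 3, and 14.4, 14.9 and 15.1 times in diet-only replicates 1, 2 and 3. Expressed as a share of all miR-22 reads, the 5p strand took 5.63% (95% Wilson interval 5.49% to 5.77%) in tofogliflozin replicate 1, 4.22% (4.03% to 4.42%) in replicate 2 and 6.20% (6.07% to 6.33%) in replicate 3. In diet-only replicates 1, 2 and 3 it took 6.49% (6.39% to 6.60%), 6.29% (6.15% to 6.43%) and 6.21% (6.07% to 6.34%). Tofogliflozin replicates 1 and 2 lay below every diet-only library beyond counting error, whereas tofogliflozin replicate 3 was within the counting interval of diet-only replicate 3. The group means were 5.35% ± 1.02 with tofogliflozin and 6.33% ± 0.148 on the diet alone (SD, n = 3 each).

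**Figure D2:**
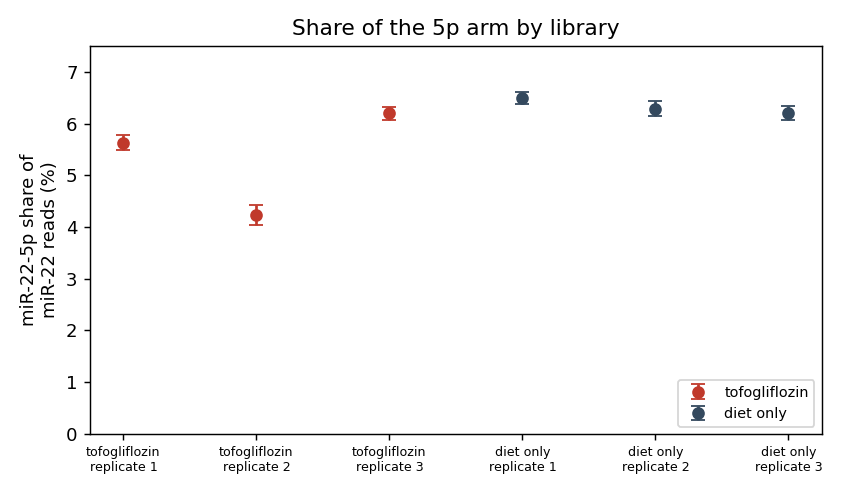
Share of miR-22 reads that came from the 5p strand (vertical axis, percent, starting at 0) in each library, tofogliflozin left and diet only right, with 95% Wilson intervals that cover counting error only. The diet-only libraries lie between 6.21% and 6.49%, and tofogliflozin replicate 2 is the lowest at 4.22%.

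On the log2 scale the 5p to 3p ratio differed by -0.28 ± 0.25 (SE) between tofogliflozin and diet-only libraries, with means of -4.16 ± 0.303 and -3.89 ± 0.0357 (SD, n = 3 each) and a 95% interval of -0.85 to 0.30 for the difference. This missed the threshold in limma over 75 hairpins (adjusted p = 0.932), and the exact permutation test gave p = 0.1. A larger difference for miR-22-5p than for miR-22-3p was therefore not shown. Without tofogliflozin replicate 2 the difference was -0.11 (limma adjusted p = 0.966). No hairpin passed an adjusted p of 0.05 in limma (0 of 75, 0%), and 1 had an unadjusted p under 0.05 (1.33%). Groups of ratios did not overlap in 4 of 75 hairpins (5.33%), miR-22 among them.

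Among the 75 hairpins, miR-22 had the 5p to 3p ratio of rank 19 counted from the most 3p-sided, at a mean log2 ratio of -4.03. In tofogliflozin replicate 2 many hairpins shifted their ratio. The median absolute deviation of the other 74 hairpins from their own median was 0.54 in that library, against 0.11 to 0.25 in the other 5 libraries. miR-22 deviated by -0.58 there, while the median signed deviation of the other hairpins was 0.22. The part of that library-wide shift in the miR-22 value was not tested.

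**Figure D3:**
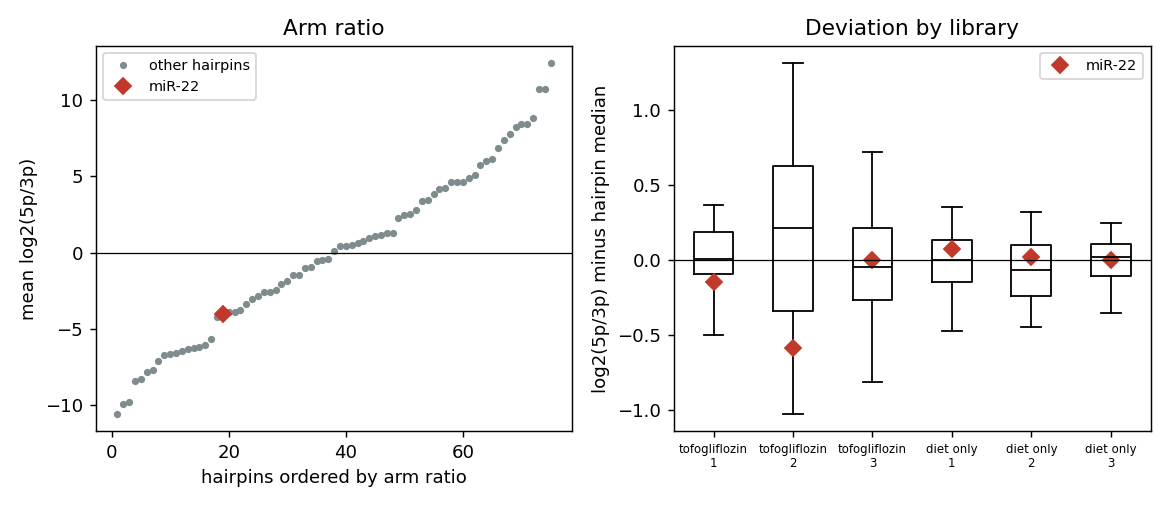
Left, mean log2 ratio of 5p to 3p counts (vertical axis) of 75 hairpins in ascending order (horizontal axis), with miR-22 as a diamond at rank 19. Right, deviation of each hairpin's log2 ratio from its median over 6 libraries (boxes from the first to the third quartile with the median, whiskers at the 5th and 95th percentiles, n = 74 other hairpins), tofogliflozin libraries left, with miR-22 as diamonds. The box of tofogliflozin replicate 2 is the widest, and miR-22 lies at -0.58 in it.

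miR-22-3p was set beside a list of 10 miRNAs described as acting on PPARα, itself included. All 10 were tested, 0 passed an adjusted p of 0.05 in edgeR's quasi-likelihood test (background 0%), and 1 had an unadjusted p under 0.05 (background 4.33%). There were 5 members below 0 and 5 above, with a median log2 fold change of -0.07, beside 0.03 over all miRNAs. The list's median was 0.0067 without tofogliflozin replicate 2 and 0.01 without tofogliflozin replicate 3, so its sign rests on single libraries. Groups did not overlap for 2 of the 10, miR-22-3p and miR-20b-5p (background 11.5%).

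By mean level miR-22-3p was the fourth of the list, after miR-10b-5p, miR-21a-5p and miR-27b-3p. miR-10b-5p, transcribed from a Hox cluster, was at 53247, 51309 and 47057 CPM in tofogliflozin replicates 1, 2 and 3, and at 46456, 50571 and 49631 CPM in the diet-only replicates. Its groups overlapped and its log2 fold change was 0.05 ± 0.10 (SE), with a sign that turned without diet-only replicate 1 (-0.0059) and with no low-count filter (-0.01). miR-21a-5p, known to increase after kidney injury, was at 15182, 22026 and 11158 CPM with tofogliflozin, and at 21138, 17760 and 17992 CPM on the diet alone. Its tofogliflozin libraries lay on both sides of the diet-only ones, with a log2 fold change of -0.23 ± 0.23 (SE) that was -0.55 without tofogliflozin replicate 2 and -0.05 without tofogliflozin replicate 3. miR-27b-3p, described as acting on lipid metabolism genes, was at 13749, 8322 and 17312 CPM with tofogliflozin, and at 14668, 16686 and 14497 CPM on the diet alone. Its groups overlapped too, and its log2 fold change of -0.22 ± 0.24 (SE) was -0.0014 without tofogliflozin replicate 2 and -0.49 without tofogliflozin replicate 3.

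The fold changes of the list ran from -0.43 ± 0.26 (SE) for miR-27a-3p to 0.73 ± 0.30 for miR-20b-5p, a low-abundance miRNA of the miR-17 seed family. miR-20b-5p was at 11.05, 18.3 and 8.67 CPM in tofogliflozin replicates 1, 2 and 3, and at 7.97, 6.45 and 8.20 CPM in the diet-only replicates. It was the 1 member with an unadjusted p under 0.05 (edgeR, adjusted p = 0.824), and without tofogliflozin replicate 2 its value was 0.36. miR-27a-3p was at -0.21 without that library and at -0.69 without tofogliflozin replicate 3. Within groups, the SD of log2 CPM over the 10 members ran from 0.079 for miR-10b-5p to 0.49 for miR-141-3p, and that of miR-22-3p (0.10) was the next above the lowest, followed by miR-181a-5p at 0.13.

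**Figure D4:**
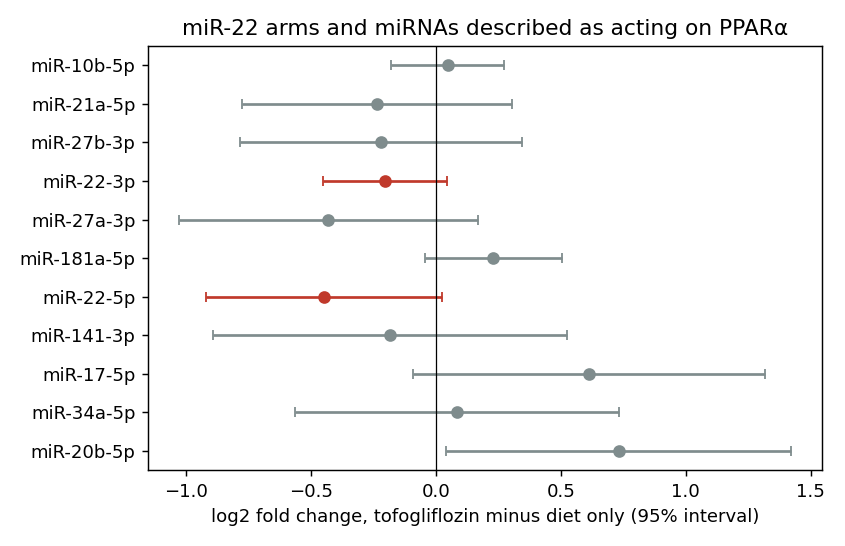
Log2 fold change, tofogliflozin over diet only (horizontal axis), with 95% intervals from edgeR's quasi-likelihood fit, for the miR-22 strands and the other 9 miRNAs described as acting on PPARα, highest mean level at the top. The interval of miR-22-3p reaches from -0.45 to 0.04, and the interval of miR-20b-5p alone does not include 0 before adjustment.

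The miRNAs whose pattern over the 6 libraries was most like that of miR-22-3p were sought among 128 others with a mean of at least 100 CPM, by the SD of their log2 ratio to miR-22-3p. The smallest SDs were 0.049 for miR-128-3p, 0.050 for miR-1843a-5p and 0.063 for miR-16-5p. miR-128-3p, a miRNA best known from brain, was at 2993, 2753 and 3085 CPM in tofogliflozin replicates 1, 2 and 3, and at 3472, 3435 and 2882 CPM in the diet-only replicates. It was thus lowest in the same tofogliflozin library, but its groups overlapped because diet-only replicate 3 was low. Their log2 fold changes were -0.15 ± 0.11 for miR-128-3p, -0.17 ± 0.12 for miR-1843a-5p and -0.11 ± 0.11 for miR-16-5p (SE), a direction that the choice by likeness favours. The value of miR-128-3p was -0.25 without diet-only replicate 3. miR-22-5p, from the same hairpin, ranked 76 of the 128 by this measure with an SD of 0.24. The measure also grows when 2 miRNAs swing together by different amounts, so this rank does not show that the strands moved apart. Both strands ordered the 6 libraries alike except for diet-only replicates 1 and 2, and both were lowest in tofogliflozin replicate 2.

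The fold changes of both strands stayed below 0 under all 16 alternative settings run, though none brought either past the threshold. They ran from -0.28 to -0.17 for miR-22-3p and from -0.62 to -0.27 for miR-22-5p, where both ends for miR-22-5p came with a tofogliflozin library left out. Because the groups did not overlap with TMM scaling, leaving out a library could hardly turn either sign. The robust fit gave the same values as the main setting.

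**Figure D5:**
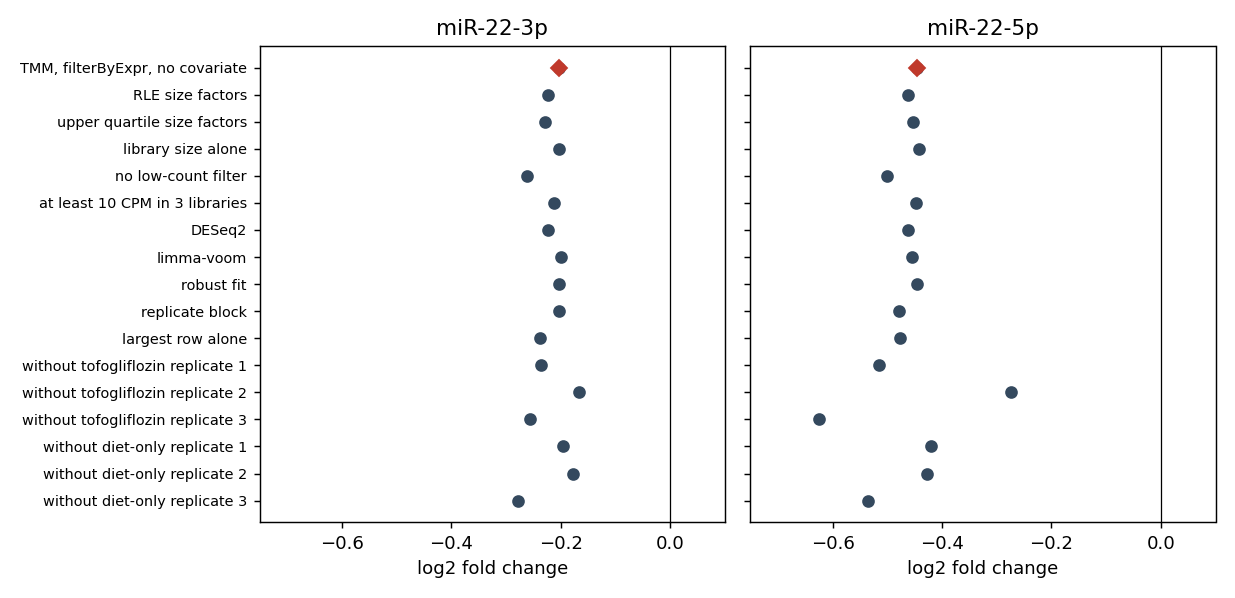
Log2 fold change, tofogliflozin over diet only (horizontal axes), of miR-22-3p and miR-22-5p under the settings named at the left, with the value reported as a diamond. All values lie below 0, and for miR-22-5p the values without tofogliflozin replicate 2 (-0.27) and without replicate 3 (-0.62) lie farthest apart.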

How the data were processed

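Small RNA libraries of renal cortex from 6 mice were prepared with a small RNA kit of NEBNext, per the labels' protocols, and cutadapt 1.14 and build mm10 are named in the submitters' processing notes. The sources used here name no aligner, counter or miRBase release. Raw read counts per row were deposited by the authors, without normalization, in 2033 rows and 1900 mature names. Identical rows of a name were counted once and differing rows summed, or the largest row alone was taken as an alternative (22.4% to 23.5% fewer counts). The miR-22 strands have 1 row each. Columns of other samples numbered 0.

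Counts were tested in R 4.3.3 with edgeR 4.0.16 (quasi-likelihood F-test, 2-sided, TMM, filterByExpr with a smallest count of 10 and total of 15, Benjamini-Hochberg, threshold 0.05), tofogliflozin minus diet only, 3 against 3, without covariates. This left 462 miRNAs. SE is the absolute log2 fold change over the square root of F. Exact permutation tests used log2 CPM with a prior count of 2 and 20 arrangements. Arm ratios, log2 of 5p over 3p counts with a pseudocount of 1, were tested with limma 3.58.1 in the 75 hairpins whose lower arm averaged 50 counts or more. Alternatives were other size factors, filters and row merging, DESeq2 1.42.0, limma-voom, a robust fit, a replicate block, other arm settings and each library left out. The scripts were tested on simulated data. Hairpins were folded with RNAfold 2.7.2. RefSeq held 1603 of the 1900 names, and GRCm38 is mm10.

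Named miRNAs were the members, a list of 10 miRNAs described as acting on PPARα (values for the 4 highest and for the ends of its range), the 2 neighbours either side in rank, and the 3 most alike in pattern. miR-20b-5p and miR-27a-3p were singled out after their values were seen. The members, lists and rules were chosen with earlier results of these data known. Marker names of miR-142a and miR-486a were matched to miR-142 and miR-486. Each library is a separate sample per the labels.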

Additional observations from a re-analysis of the deposited data

How the results depend on the processing

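Both miR-22 fold changes and the arm difference stayed below 0 and uncalled in all alternatives (16, 16 and 12). Part of this was fixed beforehand. The groups did not overlap in any of these values in the main setting, so leaving a library out could hardly turn a sign. The arm difference was -0.28 with minima of 10 or 200 counts, the replicate block or the largest row alone, settings that cannot change it. At an unadjusted p under 0.05, miR-22-5p stood in 2 of 16, with no low-count filter and without tofogliflozin replicate 3, and its adjusted p by edgeR, DESeq2 or limma-voom lay between 0.281 and 0.990. The lowest arm difference was -0.40 (tofogliflozin replicate 3 left out) and the highest -0.11 (tofogliflozin replicate 2 left out). Called miRNAs numbered 10 of 1026 with no low-count filter and 2 with DESeq2, and 0 under the others; called hairpins numbered 0 throughout. Leaving out tofogliflozin replicate 3 raised the miRNAs with an unadjusted p under 0.05 to 74, against 20 with all libraries, and the hairpins to 20, against 1. Of 191 values of the other named miRNAs, 7 turned sign. The value of miR-10b-5p was -0.012 with no low-count filter. With each library left out in turn, it lay between -0.0059 and 0.076, that of miR-34a-5p between -0.077 and 0.29, and that of miR-141-3p between -0.47 and 0.086. The cause was not tested. With the replicate number as a block, miR-22-3p was at -0.20 and miR-22-5p at -0.48, the arm difference at -0.28, and 0 miRNAs were called with 9 at an unadjusted p under 0.05. Deviations of equal-numbered mice from their group means correlated at r = -0.02, -0.11 and -0.17 over the miRNAs. Mice with unequal numbers were not compared and each group held 3 mice, so these correlations cannot exclude a pairing. The ranks of the strands, 24 and 87, were 24 and 84 from the largest row alone. The lowest miR-22 count was 1771, for miR-22-5p in tofogliflozin replicate 2, the library with the fewest counts.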
